A study of Mus musculus with 9 samples.

Results

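Pou5f1, Nanog, Sox2, Klf4 and Esrrb encode core transcription factors of the pluripotent state, and their 5 loci were read for CpG methylation in mouse embryonic stem cells. Each locus was taken as a fixed window on the mm9 build: Pou5f1 at chr17:35636000-35652000, Nanog at chr6:122651000-122669000, Sox2 at chr3:34543000-34557000, Klf4 at chr4:55535000-55551000 and Esrrb at chr12:87695000-87866000. No methylation value entered that choice. A CpG position, that is a cytosine on 1 strand, counted where at least 10 reads covered it. In all 5 data tables together, 534 of the 1263118 commonly covered positions lay in these windows, 23 at Pou5f1, 8 at Nanog, 115 at Sox2, 153 at Klf4 and 235 at Esrrb. In at least 1 table, 762 positions were covered.

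Pou5f1 (also called Oct4) is a POU-domain factor that binds DNA together with Sox2, an HMG-box factor, at many enhancers of stem cell genes. Nanog is a homeodomain protein, Klf4 a zinc-finger factor and Esrrb an orphan nuclear receptor, and these proteins sustain self-renewal of embryonic stem cells as a network that also regulates its own genes. When stem cells differentiate these genes are shut off, and methylation of cytosine in CpG dinucleotides at promoters such as those of Pou5f1 and Nanog is a known part of lasting silencing. Dnmt3a sets new methyl groups, and Dnmt3a2 is its shorter isoform, the main Dnmt3a product of embryonic stem cells.

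All samples were Dnmt TKO embryonic stem cells of the J1 line at passages 7 to 10. Dnmt TKO is the name of cells without the DNA methyltransferases Dnmt1, Dnmt3a and Dnmt3b. WWD, R and WT carried the Dnmt3a2 construct of that name, WWD and R being the mutants and WT the wild-type enzyme. C and TKO are labelled with no construct, and what sets C apart from TKO is not given in the sources used here. Neither are the promoter that drives the constructs and the clone or clones behind a group. WWD, R, WT and C have 2 samples each and TKO has 1. The labels name a single table for both samples of a group, so each table was taken as a pool, an assumption. With 1 table a group there is no replicate spread: every p below compares the reads of 2 tables and not conditions. DNA tables hold no expression, so the labelled cell type could not be set against marker genes.

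Methylation was read by reduced representation bisulfite sequencing (RRBS), in which MspI cuts DNA at CCGG and bisulfite turns unmethylated cytosine into a base read as T. The level of a position is the percent of its reads that still show C. Over all nuclear positions the median coverage was 75 reads in WWD, 103 in R, 104 in WT, 66 in C and 87 in TKO, and the tables summed 133646344 to 210131898 reads over positions. Depth was uneven between tables. A position is called full depth below where TKO had at least 0.5 times the reads of WT, which held at 384 of the 534 positions of the loci and at 909143 of the 1263118 positions in all. The genome-wide mean at full depth was 3.39% in WWD, 13.3% in R, 13.2% in WT, 0.259% in C and 0.171% in TKO.

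RefSeq promoter sequences show which CpGs of a promoter the assay reached, so 1 is printed for each gene, from 250 bases before to 50 bases after the RefSeq start (sequences from RefSeq, assembly GRCm38.p6). No mm9 genome was used. Instead a sequence was placed on mm9 where the spacing of its CpGs matched at least 4 covered CpGs at a single place in the window. Capitals mark CpGs covered in at least 1 table in the first 4 sequences, and every CpG in that of Nanog, which could not be placed.
Pou5f1: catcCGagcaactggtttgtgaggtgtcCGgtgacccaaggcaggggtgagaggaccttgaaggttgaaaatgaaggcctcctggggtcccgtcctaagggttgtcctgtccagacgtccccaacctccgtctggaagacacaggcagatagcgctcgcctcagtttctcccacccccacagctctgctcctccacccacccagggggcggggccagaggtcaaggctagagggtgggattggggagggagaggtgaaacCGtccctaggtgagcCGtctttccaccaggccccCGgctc
Sox2: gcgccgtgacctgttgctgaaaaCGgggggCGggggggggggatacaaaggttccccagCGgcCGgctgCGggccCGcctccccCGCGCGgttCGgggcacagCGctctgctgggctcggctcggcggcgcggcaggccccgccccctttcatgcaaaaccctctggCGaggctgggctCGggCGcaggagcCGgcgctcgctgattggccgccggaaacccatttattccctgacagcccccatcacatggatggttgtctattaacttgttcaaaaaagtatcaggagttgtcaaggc
Klf4: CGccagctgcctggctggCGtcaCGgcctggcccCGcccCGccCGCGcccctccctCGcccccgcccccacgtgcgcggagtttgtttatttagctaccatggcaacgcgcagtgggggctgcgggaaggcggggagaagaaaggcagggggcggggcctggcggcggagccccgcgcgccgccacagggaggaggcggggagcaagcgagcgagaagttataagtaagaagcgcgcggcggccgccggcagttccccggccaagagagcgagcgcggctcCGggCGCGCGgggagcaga
Esrrb: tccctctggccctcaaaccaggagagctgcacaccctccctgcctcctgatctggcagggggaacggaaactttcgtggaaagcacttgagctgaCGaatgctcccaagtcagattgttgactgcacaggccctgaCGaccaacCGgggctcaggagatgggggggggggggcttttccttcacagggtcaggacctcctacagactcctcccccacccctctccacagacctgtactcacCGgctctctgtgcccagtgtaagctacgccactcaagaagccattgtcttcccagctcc
Nanog: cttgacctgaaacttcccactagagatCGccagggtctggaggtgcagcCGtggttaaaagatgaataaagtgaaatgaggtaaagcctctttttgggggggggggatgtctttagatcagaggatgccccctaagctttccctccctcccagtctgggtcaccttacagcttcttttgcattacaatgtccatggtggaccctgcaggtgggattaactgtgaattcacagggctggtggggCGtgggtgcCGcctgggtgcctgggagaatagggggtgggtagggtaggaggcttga
The sequences landed at chr17:35642727-35643026 (plus strand) for Pou5f1, chr3:34548667-34548966 (plus) for Sox2, chr4:55545298-55545597 (minus) for Klf4 and chr12:87701817-87702116 (plus) for Esrrb. Coverage reached 5 of 11 CpGs in the promoter of Pou5f1, 15 of 27 in Sox2, 12 of 40 in Klf4 and 4 of 7 in Esrrb. The MspI letters CCGG, which read the same on both strands, occur 2 times in the sequence of Pou5f1, 3 times in Sox2, 3 times in Klf4, 2 times in Esrrb and 0 times in Nanog. Of 32851 RefSeq promoter sequences of this length, 17338 (52.8%) hold CCGG. The 4 CpGs of the Nanog sequence, and a second RefSeq promoter each of Pou5f1, Nanog and Esrrb, were matched to no covered positions. Distances below run from the placed start in the direction of the gene, and exon or intron is not given because no mm9 annotation was used.

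Among the 5 loci, the mean level in the Dnmt3a2 pools was highest at Esrrb, where it was close to the genome-wide full-depth mean of 3.39% in WWD, 13.3% in R and 13.2% in WT. At its 174 full-depth positions the mean level was 4.33% in WWD, 13.5% in R, 13.6% in WT, 0.209% in C and 0.151% in TKO. At the 113 full-depth positions of Klf4 the mean was 0.645% in WWD, 0.612% in R, 0.589% in WT, 0.160% in C and 0.114% in TKO. Klf4 thus stayed under 1% in every pool. Sox2 was as low, with 0.483% in WWD, 0.787% in R, 0.688% in WT, 0.148% in C and 0.109% in TKO over 76 positions. Pou5f1 averaged 2.83% in WWD, 5.84% in R, 5.04% in WT, 0.639% in C and 0.341% in TKO over 18 positions. Nanog rested on 3 full-depth positions, whose mean was 1.74% in WWD, 0.357% in R, 0.140% in WT, 0.167% in C and 0% in TKO. The order of the loci by WT level was therefore Esrrb, Pou5f1, Sox2, Klf4 and Nanog, and no spread over samples exists to separate neighbours in it.

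**Figure D1:**
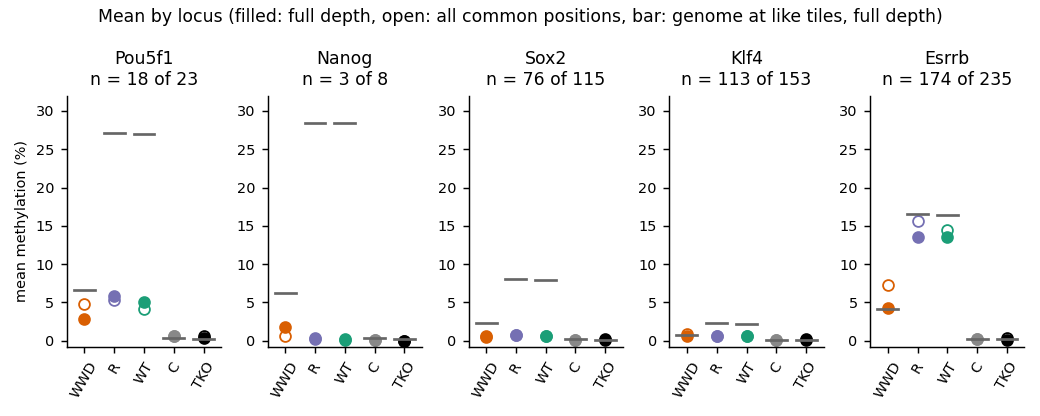
Mean percent methylated (vertical axis) at each locus in WWD, R, WT, C and TKO, left to right. Filled circles are full-depth positions, open circles all commonly covered positions and grey bars all full-depth positions of the genome in 1 kb tiles of like CpG count; the WT circle of Esrrb at 13.6% is near its bar at 16.5%, while that of Pou5f1 at 5.04% is under its bar at 27.0%.

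Few CpGs are covered near the start of Pou5f1, and those covered in all pools were nearly free of methylation. The 3 commonly covered positions between 11 and 45 bp past the start averaged 2.56% in WWD, 0% in R, 1.75% in WT, 0% in C and 1.28% in TKO. Their reads summed to 83 in WWD, 175 in R, 58 in WT, 134 in C and 77 in TKO, so these means rest on 1 or 2 methylated reads at 1 position. Within the printed promoter, 222 bp before the start at chr17:35642755, 25% of 16 reads in R, 0% of 10 in WT and 0% of 14 in C were methylated. The tile chr17:35643001-35644000, which begins at the start region and has 8 positions, averaged 2.30% in WWD, 1.16% in R, 1.17% in WT, 0.790% in C and 1.64% in TKO. All pools were low there, TKO included. The next tile, chr17:35644001-35645000 with 6 positions, averaged 5.94% in WWD, 3.24% in R, 0.485% in WT, 0% in C and 0.127% in TKO. Its WWD mean came from 1 position, described with the WWD comparison below.

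The CpGs of the Pou5f1 window with a high WT level lay far from the start. The position with the highest WT level at full depth, chr17:35651469 on the forward strand, is 8492 bp downstream of the start, farther than the 4746 bp that RefSeq gives as the gene's length. It was methylated in 35.8% of 204 reads in WWD, 57.4% of 190 reads in R, 54.8% of 199 reads in WT, 2.68% of 149 reads in C and 0% of 203 reads in TKO. The 95% Wilson interval was 29.5 to 42.6% in WWD, 50.3 to 64.2% in R and 47.8 to 61.5% in WT, and 0 of 203 reads in TKO allows up to 1.48%. Intervals and such upper limits cover counting error only. A neighbour 20 bp upstream, at 35651449, had 4.84% in WWD, 25.5% in R, 21.2% in WT, 2.74% in C and 0% in TKO. WWD was the lowest of the 3 Dnmt3a2 pools at both positions. By contrast, the 10 full-depth positions of the tiles at 35643001 and 35644001 averaged 0.923% in WWD, 1.09% in R, 0.834% in WT, 0.205% in C and 0.514% in TKO. The lowest full-depth WT position with the most reads was chr17:35645127 on the reverse strand, 2150 bp past the start, where none of 195 reads in WWD, 263 in R, 213 in WT, 207 in C and 191 in TKO was methylated.

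At Nanog, coverage was thin and methylation close to 0 in every pool. The position with the highest WT level at full depth, chr6:122652882, had 1.15% of 261 reads in WWD, 0% of 288 in R, 0.42% of 236 in WT, 0.50% of 199 in C and 0% of 285 in TKO. A second, chr6:122652892, had 0.37% of 269 reads in WWD, 0.66% of 303 in R and 0% in WT, C and TKO. The highest level of any commonly covered Nanog position in any pool was 3.70% of 189 reads, in WWD at chr6:122653086, against 0% of 204 reads in WT. That difference was among those with an unadjusted p under 0.05 and was not called. With 0 of 204 reads, the WT level there is bounded at 1.47%. The 3 Nanog tiles have under 5 positions each, and WT averaged 0 to 0.497% in them.

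Sox2 is covered far more densely, and the commonly covered positions on either side of its start were low in all pools. Between 147 bp before and 455 bp past the start, no position was covered in all pools. The tile chr3:34549001-34550000, centred 0.6 kb past the start, holds 65 positions and averaged 0.177% in WWD, 0.134% in R, 0.159% in WT, 0.145% in C and 0.149% in TKO. The Dnmt3a2 pools were thus at the level of C and TKO. In the tile upstream of it, chr3:34548001-34549000, 8 positions between 187 and 147 bp before the start had 0% in WWD, 0.231% in R, 0% in WT, 0% in C and 1.14% in TKO. The TKO value there is 1 position with 9.09% of 11 reads, and none of these 8 positions was at full depth. Farther upstream, the 14 positions of chr3:34547001-34548000 averaged 0.0836% in WWD, 0.490% in R, 0.372% in WT, 0.0393% in C and 0.644% in TKO. Downstream, the 14 positions of chr3:34550001-34551000 averaged 0.728% in WWD, 0.532% in R, 0.114% in WT, 0.0921% in C and 0.108% in TKO. No tile within 2 kb of the start exceeded 1.14% in any pool.

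As at Pou5f1, the higher Sox2 values stood at the far end of the window. The tile chr3:34555001-34556000, 6.6 kb past the start, has 7 positions and averaged 5.60% in WWD, 8.78% in R, 7.59% in WT, 0% in C and 0.137% in TKO. Its top position, chr3:34555814 on the reverse strand, lies 6897 bp from the start, beyond the 2467 bp RefSeq gene length. It had 2.17% of 138 reads in WWD (95% Wilson interval 0.742 to 6.20%), 15.8% of 139 in R (10.7 to 22.8%), 26.9% of 104 in WT (19.3 to 36.2%), 0% of 118 in C and 0% of 123 in TKO. In the same tile, chr3:34555551 had 0.51% in WWD, 1.94% in R, 0% in WT, 0% in C and 0.47% in TKO. These CpGs of high and of no WT methylation lay 6897 and 6634 bp past the start.

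Klf4, a short CpG-rich gene, was the most densely covered of the 5 per kb. The 71 positions of chr4:55545001-55546000, the tile over its start, averaged 0.211% in WWD, 0.181% in R, 0.209% in WT, 0.205% in C and 0.234% in TKO. Inside the placed promoter, 13 of 14 commonly covered positions were at full depth and their highest level in any pool was 2.86%. The tile into the gene, chr4:55544001-55545000 with 43 positions, averaged 0.702% in WWD, 0.583% in R, 0.405% in WT, 0.189% in C and 0.0570% in TKO. Levels stayed low further in as well. The 27 positions of chr4:55543001-55544000 averaged 1.54% in WWD, 1.37% in R, 1.62% in WT, 0.0715% in C and 0.0656% in TKO. The 6 of chr4:55542001-55543000 averaged 2.19% in WWD, 3.15% in R, 3.06% in WT, 0.0933% in C and 0.195% in TKO. Upstream, the 6 of chr4:55546001-55547000, 1 of them at full depth, averaged 5.30% in WWD, 0.467% in R, 1.08% in WT, 0% in C and 1.23% in TKO. The highest full-depth WT position of the locus, chr4:55543756 at 1591 bp, had 17.7% of 147 reads in WWD, 10.8% of 204 in R, 11.0% of 154 in WT, 0% of 123 in C and 0% of 147 in TKO. Not 1 Klf4 position exceeded 20% in WT.

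**Figure D2:**
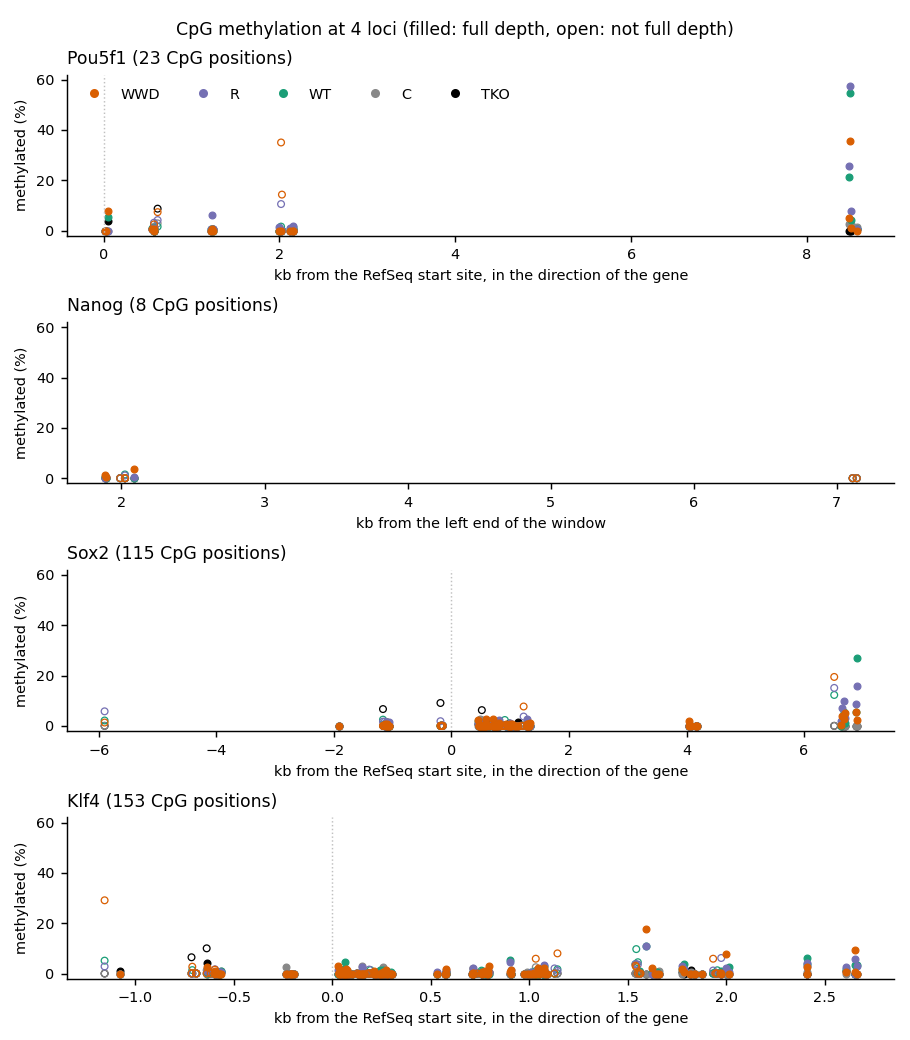
Percent of reads methylated (vertical axis, 0 to 60%) at each commonly covered CpG position of Pou5f1, Nanog, Sox2 and Klf4, against kb from the placed RefSeq start (dotted line) or, for Nanog, from the left end of the window. Colours are the 5 pools and open circles are positions not at full depth; values near the starts lie close to 0, and the WT levels of 54.8% at Pou5f1 and 26.9% at Sox2 stand 8492 and 6897 bp away.

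Esrrb is by far the longest of the genes, with 160512 bp in RefSeq, and its window held a mixture of methylated and unmethylated stretches in the Dnmt3a2 pools. Of its 235 commonly covered positions, 24 exceeded 20% in WWD, 63 in R, 61 in WT, 0 in C and 0 in TKO. At full depth, 7 of 174 did so in WWD, 40 in R and 39 in WT. The median position had 1.10% in WWD, 5.29% in R, 4.46% in WT, 0% in C and 0% in TKO. Methylated and unmethylated CpGs therefore both contributed to the mean.

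The region before the first Esrrb start was methylated in the Dnmt3a2 pools. The 4 full-depth positions of chr12:87701001-87702000, between 567 and 392 bp upstream, averaged 14.6% in WWD, 46.6% in R, 51.7% in WT, 0.330% in C and 0% in TKO. Among them is the highest full-depth WT position of all 5 loci, chr12:87701500 on the forward strand, 567 bp upstream of the start. Its reads were methylated in 42.6% of 94 in WWD (95% Wilson interval 33.0 to 52.6%), 79.3% of 213 in R (73.4 to 84.2%), 85.0% of 140 in WT (78.2 to 90.0%), 0% of 92 in C and 0% of 98 in TKO. Within the printed promoter no position reached 10 reads in TKO. At chr12:87701913, 154 bp upstream, 75% of 32 reads in R and 63.4% of 41 reads in WT were methylated, against 0% of 15 reads in C. Nearest to the start, at chr12:87702059, the levels were 33.3% of 15 reads in WWD, 20.6% of 63 in R, 13.8% of 109 in WT and 0% of 45 in C. Over positions covered in at least 1 pool, the highest level in a printed promoter at Esrrb was thus 33.3% in WWD, 75% in R and 63.4% in WT, all at positions with under 10 reads in TKO. At Pou5f1 it was 7.69% in WWD, 25% in R and 5.26% in WT, and at Sox2 and Klf4 no position exceeded 2.86% in WWD, R or WT.

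A dense CpG block inside the Esrrb window stayed low. The tile chr12:87763001-87764000, centred 61.4 kb past the first start, holds 43 positions and averaged 1.28% in WWD, 1.65% in R, 1.50% in WT, 0.259% in C and 0.193% in TKO. The 31 positions of chr12:87762001-87763000 beside it averaged 2.89% in WWD, 2.33% in R, 2.75% in WT, 0.114% in C and 0.0713% in TKO. At full depth the means were 1.16% in WWD and 1.60% in WT in the first of these tiles, and 1.77% in WWD and 2.48% in WT in the second. At the edge of the block, the 17 positions of chr12:87764001-87765000 averaged 6.51% in WWD, 10.9% in R, 9.49% in WT, 0.166% in C and 0.913% in TKO. Past the block, single CpGs were strongly methylated again: chr12:87766261 had 14.9% of 181 reads in WWD, 70.8% of 226 in R, 73.8% of 172 in WT, 0% of 146 in C and 0.57% of 175 in TKO.

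Of the other Esrrb tiles with at least 5 positions, 4 were low in every pool. The 14 positions of chr12:87743001-87744000 averaged 0.861% in WWD, 2.22% in R, 0.726% in WT, 0.0429% in C and 0.128% in TKO. The 14 of chr12:87814001-87815000 averaged 4.62% in WWD, 4.86% in R, 2.84% in WT, 0.130% in C and 0.451% in TKO. The WWD mean was above that of WT in both. With summed reads the order turned in chr12:87743001-87744000, with 0.506% in WWD and 0.851% in WT. It held in chr12:87814001-87815000, with 3.27% in WWD and 2.88% in WT. Full-depth positions of the Esrrb tiles with 10 to 19 positions averaged 1.61% in WWD and 3.65% in WT. They include those of chr12:87764001-87765000, so they cannot give the order in either tile. The 6 of chr12:87805001-87806000 averaged 2.21% in WWD, 5.38% in R and 3.21% in WT, and the 9 of chr12:87842001-87843000 averaged 1.46% in WWD, 4.35% in R and 0.890% in WT. The lowest full-depth WT position with the most reads, chr12:87743853 on the reverse strand, had 0% of 172 reads in WWD, 0.51% of 197 in R, 0% of 183 in WT, 0% of 164 in C and 0% of 210 in TKO.

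The 6 remaining tiles carried more than 10% in WT. The 5 positions of chr12:87718001-87719000, 16.4 kb past the start and all at full depth, averaged 13.3% in WWD, 49.6% in R, 52.6% in WT, 0% in C and 0.126% in TKO. The 7 of chr12:87729001-87730000, also all at full depth, averaged 8.80% in WWD, 37.0% in R, 34.5% in WT, 0.123% in C and 0% in TKO. Near the far end, the 8 of chr12:87861001-87862000 averaged 21.5% in WWD, 46.0% in R, 42.5% in WT, 0% in C and 1.33% in TKO. R was close to WT and WWD lower in all 3. The other 3 were chr12:87821001-87822000 with 3.91% in WWD, 12.6% in R and 10.6% in WT, chr12:87849001-87850000 with 5.58% in WWD, 13.3% in R and 10.4% in WT, and chr12:87859001-87860000 with 7.21% in WWD, 16.4% in R and 13.6% in WT. The 27 Esrrb tiles with fewer positions had a median of 8.69% in WWD, 27.8% in R, 22.3% in WT, 0% in C and 0% in TKO, and reached 90.6% in WWD, 86.4% in R and 82.7% in WT.

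**Figure D3:**
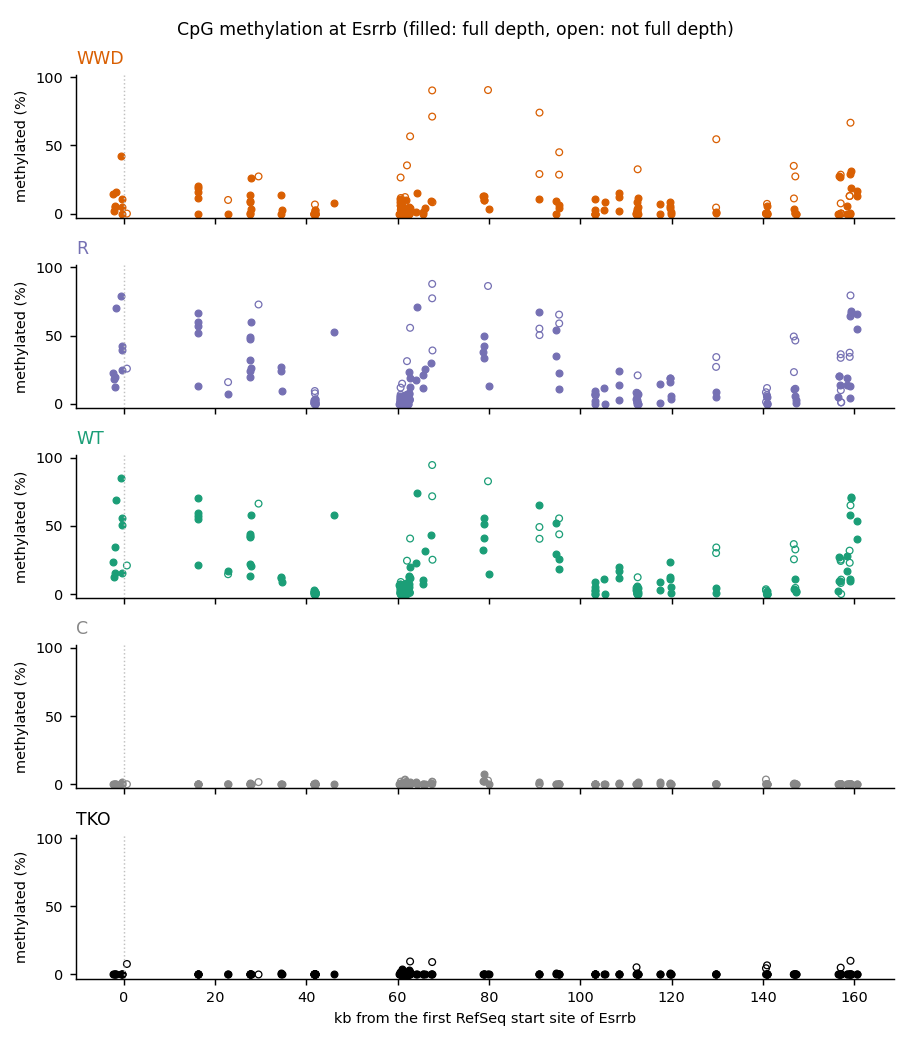
Percent of reads methylated (vertical axis) at the 235 commonly covered CpG positions of Esrrb, against kb from its first placed RefSeq start, with a panel for each of WWD, R, WT, C and TKO. Filled circles are at full depth; R and WT have 16 and 19 of these above 50% and WWD has 0, while its open circles reach 90.6%.

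WT against TKO asks what the wild-type enzyme sets on DNA without methylation, and at these loci the calls fell almost wholly at Esrrb. By Fisher's exact test, two-sided, with Benjamini-Hochberg adjustment over all positions of the genome, a position had to differ by 25 points or more, with its adjusted p under 0.01, to be called. Higher in WT were 43 of 535 tested positions (8.04%) and lower were 0, against 22.5% higher and 0.0640% lower over the genome. Of the 43, Esrrb held 41, which is 17.4% of its 235 tested positions and below the genome share. Pou5f1 held 1 and Sox2 1, and Klf4 and Nanog none. At full depth 34 were called. The 2 outside Esrrb are the far positions described above, with exact-test adjusted p = 2.17e-41 at Pou5f1 chr17:35651469 and 2.17e-10 at Sox2 chr3:34555814. The largest difference, 85.5 points, was at Esrrb chr12:87769622, with 94.6% of 130 reads in WT and 9.09% of 11 in TKO (exact test, adjusted p = 1.99e-09), a position not at full depth. Tested as 1 kb tiles on summed reads, 6 of 25 tiles were higher in WT at an adjusted p under 0.01 and at least 10 points, all at Esrrb and the 6 listed above, against 56.0% of tiles over the genome. Esrrb had 13 of the tested tiles, so 46.2% of its tiles were called. CpGs of a tile share reads, so these p-values are too small. When a tile's reads were divided by its number of CpGs, chr12:87859001-87860000, with no full-depth position, was no longer called (exact test, adjusted p = 0.327) and the other 5 were.

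WWD against WT asks what the WWD mutation changes. WWD was lower at 35 of 639 tested positions (5.48%) and higher at 3 (0.469%), against 13.4% lower and 0.461% higher over the genome. All 35 were at Esrrb, where they made 12.1% of 289 tested positions, a share near that of the genome. At full depth 30 were lower and 0 higher. The largest called difference was at chr12:87700347, 1720 bp before the Esrrb start, with 4.55% of 22 reads in WWD and 92.3% of 13 in WT (exact test, adjusted p = 1.65e-06). Better covered was chr12:87701500, with 42.6% in WWD and 85.0% in WT (exact test, adjusted p = 2.05e-10). At the 40 full-depth Esrrb positions with at least 20% in WT, a choice made on the WT value itself, the lowest, median and highest levels were 0, 10.3 and 42.6% in WWD, 12.9, 42.6 and 79.3% in R, and 20, 43.4 and 85.0% in WT. WWD was below WT at all 40, and R was below WT at 25 and above it at 15. Over all full-depth Esrrb positions the WWD mean was 0.320 times that of WT, and over full-depth positions in like tiles of the genome it was 0.254 times.

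Among tiles, 7 of 30 were lower in WWD than in WT and none higher, against 48.7% lower and 0.102% higher over the genome. All 7 are at Esrrb, where they made 41.2% of the 17 tested. Over the positions covered in both pools, chr12:87700001-87701000, centred 1.6 kb before the first start, averaged 20.1% in WWD and 61.8% in WT (exact test, adjusted p = 3.03e-29). The other means were 30.3% in WWD and 57.9% in WT at chr12:87718001-87719000, 8.80% in WWD and 34.5% in WT at chr12:87729001-87730000, and 20% in WWD and 47.9% in WT at chr12:87780001-87781000. They were 13.4% in WWD and 23.9% in WT at chr12:87848001-87849000, 27.7% in WWD and 44.8% in WT at chr12:87861001-87862000, and 32.7% in WWD and 60.9% in WT at chr12:87862001-87863000. Divided counts lost 1 of the 7, chr12:87848001-87849000 (exact test, adjusted p = 0.130). With full-depth positions alone, 20 tiles could be tested and 3 were called, those starting at 87718001, 87729001 and 87861001. There, the means were 13.3% in WWD and 52.6% in WT at the first, 8.80% in WWD and 34.5% in WT at the second, and 15.8% in WWD and 44.0% in WT at the last.

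The 3 positions higher in WWD were thinly covered in WWD and none was at full depth. At Pou5f1 chr17:35644995, 2018 bp past the start, WWD had 35% of 20 reads (95% Wilson interval 18.1 to 56.7%), R 10.5% of 95, WT 1.57% of 127 (0.433 to 5.56%), C 0% of 49 and TKO 0% of 18 (exact test of WWD against WT, adjusted p = 6.12e-05). The reverse strand of the same CpG, chr17:35644996, at full depth, had 0% of 118 reads in WWD, 0% of 139 in R and 0% of 86 in WT. At Klf4 chr4:55544548, 799 bp past the start, WWD had 25% of 16 reads, R 2.53% of 79, WT 0% of 92 and C 6.67% of 45 (exact test of WWD against WT, adjusted p = 0.00175). At Esrrb chr12:87805216, the values were 64.3% of 14 reads in WWD, 29.2% of 48 in R, 6% of 50 in WT and 11.1% of 45 in C (exact test of WWD against WT, adjusted p = 8.00e-05). With at least 30 reads in both pools, none of the 3 remained tested and the calls were 0 higher and 33 lower.

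At Esrrb, levels were higher at the positions not at full depth than at full depth. At the 61 Esrrb positions not at full depth, the median coverage was 34 reads in WWD, 88 in R, 103 in WT, 53 in C and 18 in TKO, and the mean level was 15.5% in WWD, 21.5% in R, 17.3% in WT, 0.343% in C and 0.947% in TKO. At full depth, the median coverage was 128 reads in WWD, 149.5 in R, 131 in WT, 113 in C and 132 in TKO. The WWD to WT ratio of the means was thus 0.896 where depth was not full and 0.320 at full depth. Over like tiles of the genome it was 0.711 where depth was not full and 0.254 at full depth. At 14 Esrrb CpGs covered on both strands with a single strand at full depth, that strand averaged 1.75% in WWD, 2.82% in R and 2.69% in WT, and the other strand 14.7% in WWD, 16.8% in R and 11.2% in WT. The other loci did not all share this order: at Pou5f1 the mean where depth was not full was 11.8% in WWD, 3.56% in R and 0.778% in WT, and at full depth 2.83% in WWD, 5.84% in R and 5.04% in WT. Whether uneven depth has a part in the WWD values at such positions was not tested.

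R against WT gave no call at these loci. None of 712 positions and none of 32 tiles was called, against 0.279% of positions (0.235% higher and 0.0439% lower in R) and 2.97% of tiles (2.60% higher and 0.370% lower) over the genome. At an unadjusted p under 0.05 there were 48 positions and 10 tiles. The median tile difference, R minus WT, was 3.09 points at Esrrb and 0.502 points over the genome. Full-depth Esrrb means were 0.996 times WT in R, and 1.01 times over like tiles of the genome. At full depth R was above WT at 78 Esrrb positions and below it at 76. At the 61 Esrrb positions not at full depth the mean was 1.24 times WT in R, and 1.12 times over like tiles. There R was above WT at 45 positions and below it at 10. At an adjusted p under 0.05, 1 position passed, chr12:87736404 at Esrrb, with 71.4% of 14 reads in R and 9.09% of 22 in WT (exact test, adjusted p = 0.0193).

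**Figure D4:**
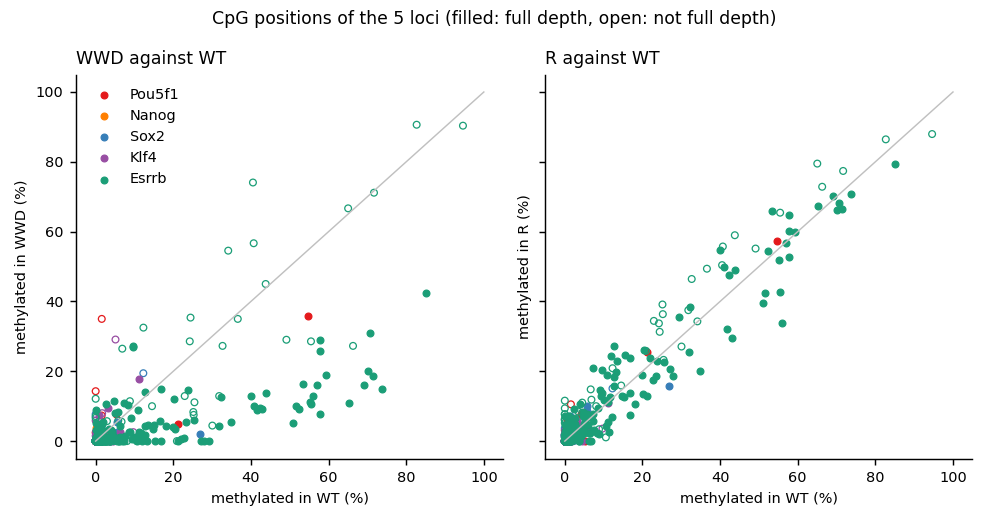
Percent methylated in WWD (left panel) and in R (right panel) on the vertical axes against WT on the horizontal axes, for the commonly covered CpG positions of the 5 loci, coloured by locus. The grey line marks equal levels, and several open points of WWD lie on or above it. Full-depth Esrrb points (filled) with over 20% in WT lie below it in WWD and on both sides of it in R. Those points are chosen on the WT value itself. Over all full-depth Esrrb positions, WWD was below WT at 121 and above it at 32, and R below at 76 and above at 78.

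WWD against TKO asks what the mutant enzyme still sets. Higher in WWD were 16 of 540 positions (2.96%), 14 at Esrrb, 1 at Pou5f1 and 1 at Klf4, and lower were 0, against 5.21% higher and 0.00110% lower over the genome. The 14 made 5.96% of the 235 positions tested at Esrrb. At full depth 7 were called, 6 at Esrrb and the far Pou5f1 position chr17:35651469 (35.8% in WWD, 0% in TKO, exact test, adjusted p = 2.18e-23). The Klf4 call, chr4:55546502, 1155 bp upstream and not at full depth, had 29.1% of 55 reads in WWD, 2.80% of 107 in R, 5.11% of 137 in WT, 0% of 73 in C and 0% of 42 in TKO (exact test, adjusted p = 0.000508). The largest difference was at Esrrb chr12:87781849, also not at full depth, with 90.6% of 96 reads in WWD, 86.4% of 140 in R, 82.7% of 156 in WT, 2.70% of 37 in C and 0% of 18 in TKO. WWD was not below WT at that CpG. Of 26 tiles, 2 were higher in WWD, against 33.4% over the genome: chr12:87718001-87719000 with 13.3% in WWD and 0.126% in TKO (exact test, adjusted p = 7.91e-21), and chr12:87861001-87862000 with 21.5% in WWD and 1.33% in TKO (exact test, adjusted p = 7.31e-54).

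C against TKO compares the pools for which the labels give no construct, and nothing was called. None of 538 positions and none of 26 tiles passed, against 0.00140% of positions, each lower in C, and 0.0147% of tiles (0.00490% higher and 0.00980% lower in C) over the genome, and 5 positions and 1 tile had an unadjusted p under 0.05. Both pools had a median of 0% at each locus. The mean over all 534 positions was 0.206% in C and 0.297% in TKO, and over the 384 full-depth positions it was 0.203% in C and 0.140% in TKO. The order of C and TKO thus turned with depth. All 12 TKO positions above 5% lay outside the full-depth set. That set is defined by TKO reads, whose median was 17 outside it and 134 inside it. Outside it, 1 methylated read can thus exceed 5%, so this split is in part set by the definition. The highest C value at full depth was 7.69%, at Esrrb.

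Set against 1 kb tiles of like CpG count, most tiles of the 4 short loci with fewer than 10 positions ranked below the middle of their class. Among 34165 tiles with 5 to 9 positions, whose median was 9.94% in WWD and 30.7% in WT, the Pou5f1 tiles chr17:35643001-35644000 and chr17:35644001-35645000 stood at percentiles 16.5 and 33.2 in WWD and 7.64 and 5.08 in WT. Among 130001 tiles with under 5 positions, the 3 Nanog tiles stood at percentiles 6.89 to 21.3 in WWD and 1.22 to 2.90 in WT. The Sox2 tile chr3:34548001-34549000, ranked among tiles with 5 to 9 positions, stood at percentile 1.35 in WWD and 0.833 in WT. Its 0% in WWD rests on 100 reads over 8 positions, none at full depth. The Klf4 tiles of 5 to 9 positions, chr4:55542001-55543000 and chr4:55546001-55547000, stood at percentiles 16.0 and 30.5 in WWD and 11.0 and 7.35 in WT. An exception was the far Pou5f1 tile chr17:35651001-35652000, whose 10.4% in WWD was at percentile 62.8 and whose 20.2% in WT was at percentile 31.6 of the class with under 5 positions. Tiles of 40 or more positions were low throughout the genome, with a median of 0.326% in WWD and 0.220% in WT. In that class, the Klf4 tile over the start, chr4:55545001-55546000, stood at percentile 30.8 in WWD and 47.3 in WT, and the Klf4 tile beside it, chr4:55544001-55545000, at 80.1 in WWD and 75 in WT. The Sox2 tile chr3:34549001-34550000 stood at 24.2 in WWD and 31.1 in WT. The dense Esrrb tile chr12:87763001-87764000 stood at percentile 91.8 in WWD and 92.9 in WT. Esrrb tile chr12:87718001-87719000 was at percentile 61.8 in WWD and 91.5 in WT of its class. Other Esrrb tiles of that class ranked low. Among them, chr12:87842001-87843000 was at percentile 12.3 in WWD and 6.79 in WT, and chr12:87805001-87806000 at 16.1 in WWD and 11.2 in WT. In all, 17 of the 25 locus tiles with at least 5 positions were below the median of their class in WWD, 17 in R, 17 in WT, 19 in C and 13 in TKO. At Esrrb it was 7 of 13 in WWD, R, WT and TKO and 11 of 13 in C. These percentiles describe the tables and are not a test.

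**Figure D5:**
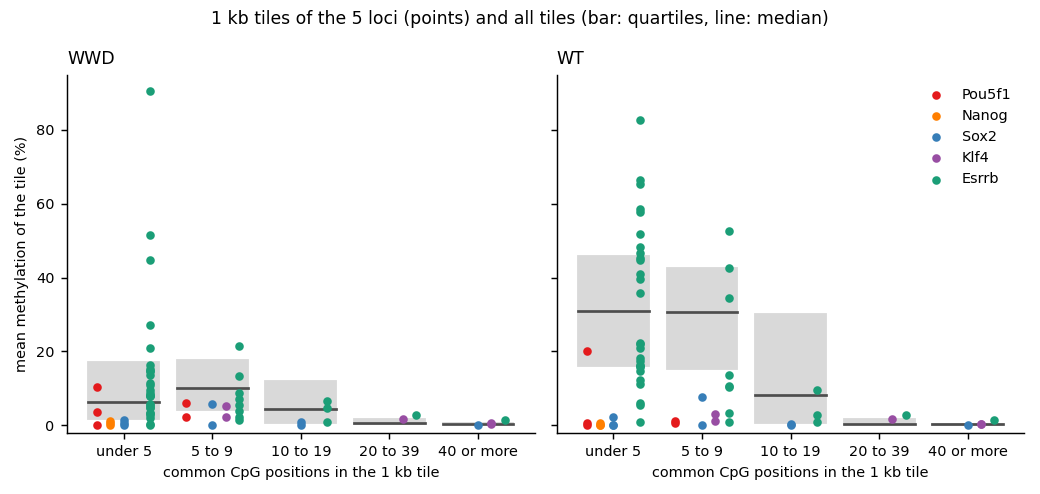
Mean percent methylated of each 1 kb tile of the 5 loci (points, coloured by locus) in WWD (left panel) and WT (right panel), by the number of commonly covered CpG positions in the tile. Grey boxes span the quartiles and lines mark the median of all tiles of the class; the 5 to 9 class has a median of 9.94% in WWD and 30.7% in WT, and the Pou5f1 and Nanog points of these and smaller tiles lie low in the WT panel except for 1 Pou5f1 tile at 20.2%.

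Part of each locus was covered in WT but had under 10 reads in TKO. These were 197 positions, 78 at Esrrb, 55 at Klf4, 44 at Sox2, 16 at Pou5f1 and 4 at Nanog. At Esrrb their mean was 27.1% in WWD over 54 positions, 31.5% in R over 77 and 27.5% in WT over 78, and 0.985% in C over 65. At Pou5f1 it was 17.1% in WWD over 13, 13.5% in R over 16, 17.1% in WT over 16 and 2.94% in C over 16. At Pou5f1 chr17:35651542, 8565 bp past the start, 85.7% of 14 reads in WWD, 40.9% of 22 in R, 77.8% of 45 in WT and 35.3% of 17 in C were methylated. Klf4 remained low in this set, with 3.48% in WWD, 1.01% in R, 1.15% in WT and 0.385% in C, and so did Sox2, with 2.08% in WWD, 1.66% in R, 0.831% in WT and 0.622% in C. Mean levels at Esrrb and Pou5f1 were therefore higher where TKO coverage was lacking than at the commonly covered positions, with median WWD coverage of 18 and 15 reads. Sox2 and Klf4 were higher there too, though low. Their commonly covered positions averaged 0.567% in WWD and 0.630% in WT at Sox2, and 0.860% in WWD and 0.659% in WT at Klf4. At Pou5f1 the higher WT mean did not hold in every tile. The far tile chr17:35651001-35652000 averaged 33.7% in WT over 10 positions covered in WWD and WT, 4 of them at full depth. Near the start, chr17:35643001-35644000 averaged 0.886% in WT over 13 such positions and 1.17% over its 8 commonly covered ones.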

How the data were processed

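DNA of the cells was cut with MspI, size-selected on a gel, bisulfite-converted and sequenced, per the labels' protocols. Bismark, methylKit and mm9 are named by the submitters' processing notes, and versions are not given in the sources used here. Per the file headers, a row holds a CpG position, its strand, a read count (coverage) and the percent of those reads with C or with T. The percent of C and the coverage were used from 5 deposited tables; a further table was tied to no sample and left out. The number of value columns left unused was 8. Multiplying coverage by percent and rounding gave back the methylated reads. Reads carry no molecular identifiers, so PCR duplicates count as reads.

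Levels are means over positions with 10 or more reads in every one of the 5 tables, mitochondrial DNA left out. Tests were fitted genome-wide, with two-sided Fisher's exact tests and Benjamini-Hochberg adjustment within each of 5 comparisons, in Python 3.11.15 with numpy 2.4.6, pandas 2.3.3, scipy 1.17.1 and numba 0.67.0. Tiles of 1 kb needed at least 5 positions in both pools, and their difference is that of the means over positions. Tile classes by number of positions were under 5, 5 to 9, 10 to 19, 20 to 39, and 40 or more. Wilson intervals are at 95%, and a level of 0 is bounded at 3 reads of the total. The tests were tried on simulated reads.

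In each locus the full-depth positions with the highest and lowest WT level were named, in each comparison the called position with the largest difference, and every tile with at least 5 commonly covered positions. Positions named beyond this rule were chosen after their values were seen. The members, lists and tests were chosen with earlier results of these data known. Gene lengths and promoters come from RefSeq (GRCm38.p6), and no coordinates were converted.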

Additional observations from a re-analysis of the deposited data

How the results depend on the processing

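No paired analysis was possible because the 2 numbered samples of a group share a single table, and for the same reason no replicate could be left out. No called result reversed its direction. Counts moved with the size of difference asked for and with the positions a tile needed. At 10 points or more, called positions were 72 for WT against TKO (71 higher, 1 lower), 60 for WWD against WT and 33 for WWD against TKO, against 43, 38 and 16 at 25 points. At 40 points they were 20 for WWD against WT and 8 for WWD against TKO. Calls of WWD against TKO came to 9 with at least 30 reads and 7 at full depth. R against WT had 1 position at an adjusted p under 0.05. Tiles of at least 3 positions gave 18 calls for WT against TKO, 12 for WWD against WT, 1 for R against WT (chr12:87736001-87737000, 33.1% in R and 10.6% in WT) and 10 for WWD against TKO. Full-depth tiles gave 3 for WWD against WT. The mean of the 5 loci together in WWD was 3.76% as reported, 2.88% with at least 20 reads, 3.19% with reads pooled, 5.83% over all its positions and 2.39% at full depth. In R it was 7.44%, with 7.06% at 20 reads, 8.08% with reads pooled, 9.68% over all positions, 6.73% at full depth and 7.96% with strands merged. In WT it was 6.89%, with 8.47% over all positions, 6.69% at full depth and 7.50% with strands merged. In C it was 0.206% and 0.391% over all positions. In TKO it was 0.297%, with 0.222% at 20 reads, 0.188% with reads pooled and 0.140% at full depth, which puts TKO below C. The cause of these moves was not tested. The other settings, among them a shifted tile grid, kept counts within 1.5 times. Depth limits Nanog most, with 3 full-depth positions.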
